A study of Drosophila melanogaster with 42 samples.

Results

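FeCH, Nep6 and CG9498 are 3 genes of Drosophila melanogaster whose transcripts may follow different courses with age in Indy206 males and in matched controls. They were chosen by the difference between the genotypes in slope on age, relative to its error, in which they led all features on the arrays. The difference in slope is therefore described here and not tested. No tested feature had a slope difference with limma adjusted p under 0.05. Each gene is measured by 1 spot, and the 3 genes are 3 of 9904 measured as single genes on arrays of 20000 spots. RNA came from the dissected head and thorax of adult males. Indy206 flies were heterozygous over Canton-S (Indy206/CS), and the controls were matched heterozygotes (2216/CS), so both genotypes share a Canton-S chromosome. Flies were taken at day 5, at day 10 and then every 10 days to day 50, and at days 70 and 80. There were 21 arrays of Indy206 and 21 of controls, 2 or 3 per genotype and age, each from a separate set of 15 pooled males. One Indy allele over 1 background was studied, so the line and the allele cannot be told apart. Each array set a sample, labelled with Cy5, against a common reference of control RNA from all ages, labelled with Cy3. A value above 0 (log2 ratio) means more RNA in the sample than in the reference. The log base and the direction are read from the dyes and the usual practice of the limma software and are likely, not stated. In whole heads and thoraces, fewer cells of a type and less RNA per cell cannot be told apart.

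Indy codes for a carrier that takes up citrate into cells, and mutants with less of it are known to live longer. FeCH encodes ferrochelatase, the mitochondrial enzyme that puts ferrous iron into protoporphyrin in the last step of heme synthesis. Heme is the cofactor of the respiratory chain cytochromes, of cytochrome P450 enzymes and of catalase. Nep6 belongs to the neprilysins, zinc peptidases of the M13 family that cut small peptides such as neuropeptides, and which in many cases sit at the cell surface. CG9498 carries an alias of the ecdysteroid kinase-like family in the gene table, a large insect family named after a silkworm enzyme that phosphorylates ecdysteroids, and most of its fly members are little studied. In the RefSeq gene table of assembly Release 6, FeCH (CG2098) lies on arm 3R, Nep6 (CG3775) on the X and CG9498 on 2L, so none of them neighbours another. That table places Nep6 within the span of Pde9, a phosphodiesterase gene not measured here as a single gene. Whether the Nep6 spot also detects Pde9 was not tested.

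Markers of photoreceptors had an array median above 0 on all 42 arrays, and those of testis and accessory gland lay below 0 on all 42. Indy itself was lower in Indy206 at every age, with -1.16 ± 0.27 on Indy206 arrays and -0.26 ± 0.14 on control arrays (SD, n = 21 each), and the arrays of the genotypes did not overlap at any of the 8 ages. Indy206 lay below controls without overlap in 17, 14.5, 9.67, 3.61, 8.48, 4.8, 7.43 and 5.98 percent of all 19077 tested units at the 8 ages in turn. A unit is a gene, its spots averaged, or a spot without a single paired gene. The lowest mean correlation of an array with its own group was 0.76, for control day 20 replicate 2, followed by 0.77 for control day 30 replicate 1 and 0.79 for the next array, with no clear gap. The arrays least like all others were those of Indy206 at day 5, with mean correlations of 0.64 and 0.63. With and without the 2 arrays least like their own group, the results on FeCH, Nep6 and CG9498 are set side by side after the marker values.

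Ferrochelatase transcripts rose with age, averaged over the genotypes, and stood highest in Indy206 flies of days 70 and 80. At day 5 the FeCH ratio was -0.12 and -0.19 on Indy206 arrays, against -0.17 and -0.13 on control arrays. At day 10 it was -0.31 and -0.21 in Indy206 and 0.11 and -0.40 in controls, and at day 20 it was -0.05 and 0.14 in Indy206 and 0.07, 0.11 and 0.04 in controls. The genotypes overlapped at these ages. At day 30 FeCH read 0.05, 0.11 and 0.21 in Indy206, against -0.42, 0.03 and -0.33 in controls. At day 40 it read 0.08, 0.18 and 0.11 in Indy206, against -0.01 and 0.03 in controls. The difference of Indy206 minus controls was 0.36 ± 0.11 (SE) at day 30. All Indy206 arrays lay above all control arrays at both ages, which held for 4.11 percent of units at day 30 and 11.6 percent at day 40. The day 50 values overlapped again, with 0.10, 0.32 and 0.13 in Indy206 and 0.19, 0.17 and 0.16 in controls. At that age 3.94 percent of units had Indy206 above without overlap.

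They were apart again at the oldest ages. At day 70 FeCH stood at 0.72, 0.87 and 0.92 on Indy206 arrays, against 0.29, 0.57 and 0.48 on control arrays. At day 80 it stood at 0.92, 0.73 and 0.84 in Indy206, against 0.18, 0.29 and 0.09 in controls. All 6 Indy206 arrays of these ages lay above each of the other 36 arrays, of which the highest was 0.57. The share of all units with such a separation from all other arrays was not computed. Complete separation of the genotypes within a single age, with Indy206 above, was found for 5.32 percent of units at day 70 and 6.21 percent at day 80. The difference of Indy206 minus controls was 0.39 ± 0.11 (SE) at day 70 and 0.64 ± 0.11 (SE) at day 80, the second being a 1.56-fold higher level. Both ages entered the slopes that chose the gene, so these values are a description.

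Set against days 5 to 40, FeCH at days 70 and 80 was 1.78-fold higher in Indy206 and 1.32-fold higher in controls. In Indy206 the mean was 0.0019 ± 0.17 (SD, n = 12 arrays) over days 5 to 40 and 0.83 ± 0.089 (SD, n = 6 arrays) over days 70 and 80. In controls these means were -0.089 ± 0.19 (SD, n = 12 arrays) and 0.32 ± 0.18 (SD, n = 6 arrays). Ordered by level, the groups were led by Indy206 at days 70 and 80, which lay 0.0088 apart, less than the residual SD of 0.13. Control day 70 followed at 0.44, and a further gap of 0.26 separated it from control day 80. Below that, 1 gap was larger than the residual SD, the 0.15 between control day 40 and control day 10, and all other neighbours in the order lay closer than it.

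**Figure D1:**
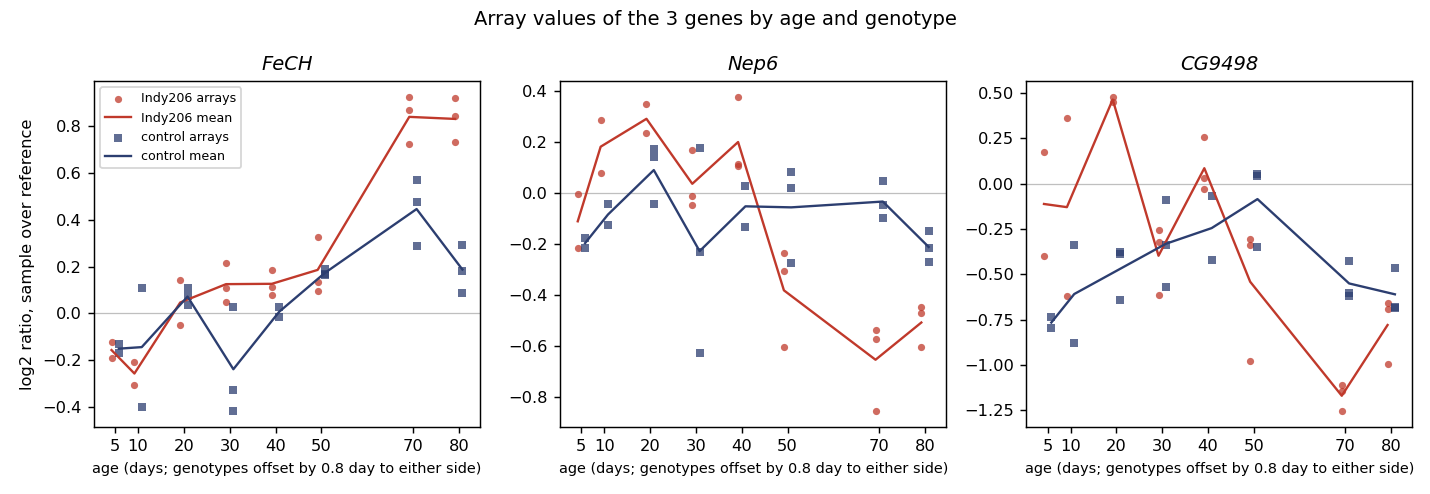
Log2 ratio of sample over reference (vertical axis) against age in days (horizontal axis) for FeCH, Nep6 and CG9498. Each point is 1 array, red circles for Indy206 and blue squares for controls, and lines join the group means. The 6 Indy206 arrays of FeCH at days 70 and 80 lie above all other arrays, and the share of all units that do so was not computed. The Indy206 arrays of Nep6 and CG9498 at day 70 lie below all control arrays of that age, as for 7.43 percent of units. Both ages entered the slopes that chose the genes.

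The Nep6 level was higher in Indy206 at days 5 to 40 and lower at days 50 to 80, while control group means lay between -0.23 and 0.091. At day 5 the ratio was -0.0043 and -0.22 in Indy206, against -0.22 and -0.18 in controls. At day 10 it was 0.29 and 0.08 in Indy206, against -0.04 and -0.12 in controls. At day 20 the ratio was 0.24 and 0.35 in Indy206, against 0.17, -0.04 and 0.14 in controls. Indy206 arrays lay above all control arrays at days 10 and 20, as they did for 18.1 percent and 9.13 percent of all units, and overlapped with them at day 5. At day 30 Nep6 read -0.01, 0.17 and -0.05 in Indy206, against -0.63, 0.18 and -0.23 in controls. The low value of -0.63 is control replicate 1, one of the 2 arrays least like their own group. At day 40 Nep6 read 0.11, 0.12 and 0.38 in Indy206, against 0.03 and -0.13 in controls, a separation seen for 11.6 percent of units.

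From day 50 the Indy206 level of Nep6 was the lower of the pair. At day 50 the arrays read -0.60, -0.31 and -0.24 in Indy206, against -0.27, 0.09 and 0.02 in controls, and overlapped. At day 70 they read -0.57, -0.54 and -0.86 in Indy206, against -0.10, -0.05 and 0.05 in controls. At day 80 they read -0.45, -0.61 and -0.47 in Indy206, against -0.27, -0.15 and -0.21 in controls. All Indy206 arrays lay below all control arrays at days 70 and 80, as for 7.43 percent and 5.98 percent of units. The difference was -0.62 ± 0.14 (SE) at day 70, a 1.54-fold lower level in Indy206, and -0.30 ± 0.14 (SE) at day 80.

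Set against days 5 to 40, Nep6 at days 70 and 80 was 1.63-fold lower in Indy206 and 1.02-fold lower in controls. The Indy206 mean was 0.12 ± 0.18 (SD, n = 12 arrays) over days 5 to 40, -0.38 ± 0.20 (SD, n = 3) at day 50 and -0.58 ± 0.15 (SD, n = 6) over days 70 and 80. The control means for the same windows were -0.090 ± 0.22, -0.056 ± 0.19 and -0.12 ± 0.11 (SD, n = 12, 3 and 6). In the order of the 16 group means, Indy206 at days 20, 40 and 10 stood highest and Indy206 at days 50, 80 and 70 lowest. No gap between neighbours in that order was larger than the residual SD of 0.17.

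The CG9498 level was higher in Indy206 at days 5, 10, 20 and 40 and lower at days 30, 50, 70 and 80, and scattered more between arrays than that of Nep6. At day 5 the ratio was 0.17 and -0.40 in Indy206, against -0.79 and -0.74 in controls. At day 10 it was 0.36 and -0.62 in Indy206, against -0.34 and -0.88 in controls. At day 20 it was 0.48 and 0.45 in Indy206, against -0.39, -0.38 and -0.64 in controls. Indy206 lay above all control arrays at day 5, as for 20.6 percent of units, and at day 20, as for 9.13 percent, while day 10 overlapped. The difference at day 20 was 0.93 ± 0.22 (SE), a 1.91-fold higher level in Indy206. At day 30 CG9498 read -0.62, -0.32 and -0.26 in Indy206 and -0.09, -0.57 and -0.34 in controls. At day 40 it read -0.03, 0.26 and 0.03 in Indy206 and -0.07 and -0.42 in controls. The genotypes overlapped at day 30, and Indy206 lay above controls at day 40, as for 11.6 percent of units.

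From day 50 on, Indy206 had the lower group mean of CG9498 at each age, as it also had at day 30. At day 50 CG9498 read -0.98, -0.31 and -0.34 in Indy206, against -0.35, 0.04 and 0.05 in controls. At day 70 it read -1.11, -1.14 and -1.25 in Indy206, against -0.60, -0.43 and -0.62 in controls. At day 80 it read -0.69, -0.99 and -0.66 in Indy206, against -0.68, -0.69 and -0.46 in controls. Only day 70 of these ages separated the genotypes completely, with Indy206 below, as for 7.43 percent of units. Its difference was -0.62 ± 0.20 (SE), against -0.17 ± 0.20 (SE) at day 80. The control course was not level, since the control group means ran from -0.77 at day 5 up to -0.086 at day 50 and down to -0.61 at day 80. In the order of levels, Indy206 day 20 led by 0.38 and Indy206 day 70 trailed by 0.39, both more than the residual SD of 0.25, and all other neighbours lay closer than that.

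As slopes on age, in log2 units per 10 days, FeCH gained 0.14 ± 0.011 (SE) in Indy206 and 0.065 ± 0.011 (SE) in controls. Nep6 had slopes of -0.10 ± 0.015 (SE) in Indy206 and -0.0031 ± 0.015 (SE) in controls. Those of CG9498 were -0.14 ± 0.022 (SE) in Indy206 and 0.018 ± 0.021 (SE) in controls. FeCH therefore had slopes of 1 sign in both genotypes, and Nep6 and CG9498 had control slopes smaller than their errors. The control slope of CG9498 depended on the setting, with 0.14 ± 0.046 without days 70 and 80, 0.069 ± 0.024 with midgut markers as a covariate, 0.050 ± 0.027 with quantile normalization and -0.037 ± 0.022 without days 5 and 10 (SE). The differences of Indy206 minus control were 0.078 ± 0.016, -0.10 ± 0.021 and -0.16 ± 0.030 (SE) for FeCH, Nep6 and CG9498. No unit had a slope difference with limma adjusted p under 0.05 (0 percent of 19077), and 1065 units had an unadjusted p under 0.05. That is the contrast the genes were taken from, so nothing is read from their place in it.

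The genes next in the order of that contrast were CG11149, CG7567 and CG11771, which lie outside the choice. CG11149 had a slope of -0.13 ± 0.017 (SE) in Indy206 and -0.017 ± 0.017 (SE) in controls, a difference of -0.11 ± 0.024 (SE). CG7567 had -0.36 ± 0.043 (SE) in Indy206 and -0.089 ± 0.043 (SE) in controls, a larger difference of -0.28 ± 0.061 (SE) with a larger error. CG11771 had 0.041 ± 0.012 (SE) in Indy206 and -0.029 ± 0.012 (SE) in controls. The difference divided by its error was -4.82 for Nep6, the last gene inside the choice, and -4.60 for CG11149, the first outside it. The step between inside and outside was thus small.

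**Figure D2:**
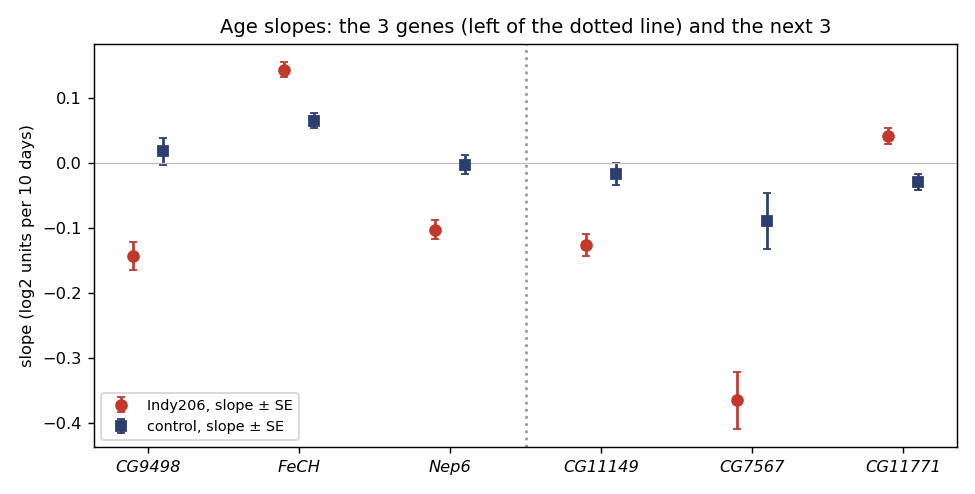
Slope on age in log2 units per 10 days (vertical axis) with its standard error, for FeCH, Nep6 and CG9498 and, right of the dotted line, the 3 genes next in the order of the slope difference over its error. Red circles are Indy206 and blue squares controls. The slopes of FeCH are above 0 in both genotypes, at 0.14 in Indy206 and 0.065 in controls, and those of Nep6 and CG9498 are below 0 in Indy206 and near 0 in controls.

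The slope averaged over both genotypes is a separate contrast, whose estimate has a correlation of 0.013 with that of the slope difference under the design. FeCH rose by 0.10 ± 0.0080 (SE) per 10 days (limma adjusted p = 4.0e-11). Nep6 fell by 0.053 per 10 days with an SE of 0.010 (limma adjusted p = 0.00027). CG9498 fell by 0.062 with an SE of 0.015 (limma adjusted p = 0.0027). All 3 genes were called, in a contrast that called 25.2 percent of all units, 10.1 percent rising and 15.1 percent falling. A mean over genotypes does not show a fall in each, and that of Nep6 and CG9498 came from the Indy206 slopes. Choice by an estimate over its error also favours genes with a small residual spread, which this test shares. The residual SD was larger than that of 28.2 percent of units for FeCH, 53.2 percent for Nep6 and 79.4 percent for CG9498.

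The falls of Nep6 and CG9498 rested on the oldest flies. Without days 70 and 80 the mean slope of Nep6 was -0.022 ± 0.022 (SE) and not called (limma adjusted p = 0.61), and that of CG9498 was 0.032 ± 0.032 (SE), the opposite sign (limma adjusted p = 0.63). FeCH was still called there, at 0.073 ± 0.016 (SE), with limma adjusted p = 0.0067. With arrays brought to a common distribution by quantile normalization, the mean slope of CG9498 was -0.032 ± 0.019 (SE) and not called (limma adjusted p = 0.25). No loss of a single array ended the call of any of the 3 mean slopes.

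Averaged over the 8 ages, the genotypes were not called different for any of the 3 genes. FeCH averaged 0.27 ± 0.40 on Indy206 arrays and 0.064 ± 0.25 on control arrays (SD, n = 21 each). Its difference averaged over ages was 0.17 ± 0.041 (SE), a 1.13-fold higher level, with Indy206 higher at 5 of 8 ages (limma adjusted p = 0.052). Shuffling genotype among the arrays of each age 100000 times gave a two-sided permutation p = 0.0029 for FeCH, 1 of 3 genes so tested. The genes were chosen for a genotype difference in slope on these same arrays, so the permutation p is not independent of that choice. The FeCH difference was 0.11 without day 80 (limma adjusted p = 0.68). It was 0.058 ± 0.050 (SE) without days 70 and 80 (limma adjusted p = 0.999). With all ages, limma adjusted p was 0.11 with quantile normalization and 0.20 with arrays scaled to a common spread. The FeCH result lies at the threshold, since the loss of any of 5 single arrays brought it under. Without Indy206 day 20 replicate 1 the limma adjusted p was 0.045, and without Indy206 day 70 replicate 1 it was 0.046. Without control day 10 replicate 1, the one FeCH value above 0 at that age, the difference was 0.20 ± 0.037 (SE), with limma adjusted p = 0.0026. Without control day 30 replicate 2 it was 0.19 ± 0.037 (SE), with limma adjusted p = 0.0098, and without control day 70 replicate 2 limma adjusted p was 0.046.

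For the other genes the mean over ages joins opposite signs. Nep6 averaged -0.15 ± 0.37 in Indy206 and -0.094 ± 0.19 in controls (SD, n = 21 each), and its difference was -0.022 ± 0.053 (SE), with Indy206 higher at 5 ages and lower at 3 (limma adjusted p = 0.99, permutation p = 0.76). CG9498 averaged -0.38 ± 0.54 in Indy206 and -0.45 ± 0.27 in controls (SD, n = 21 each), and its difference was 0.14 ± 0.077 (SE), higher at 4 ages and lower at 4 (limma adjusted p = 0.84, permutation p = 0.28). The CG9498 difference was 0.26 with quantile normalization, 0.31 without days 70 and 80, 0.080 with midgut markers as a covariate, 0.062 without day 5 and -0.0077 without days 5 and 10, and was called in none of these. In this contrast 0.351 percent of all units were called. Its estimate has a correlation of -0.14 with that of the slope difference.

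Departure of the course from a straight line, averaged over the genotypes, was called for CG9498 (moderated F test of limma, adjusted p = 0.031) and for 6.25 percent of all units. FeCH and Nep6 had limma adjusted p = 0.053 and 0.081. The call of CG9498 was lost without any of 7 arrays. These were Indy206 day 5 replicate 2, Indy206 day 20 replicates 1 and 2, control day 5 replicates 1 and 3, control day 20 replicate 2 and control day 40 replicate 1, with limma adjusted p = 0.061, 0.051, 0.056, 0.058, 0.058, 0.053 and 0.071 in that order. FeCH was called without any of 8 arrays, the lowest limma adjusted p being 0.013 without control day 10 replicate 1, and Nep6 without control day 30 replicate 1 or 2 (limma adjusted p = 0.026 and 0.018). Whether the departure from a line differed between genotypes was also tested. None of the 3 genes was called (limma adjusted p = 1.00 for each), beside 0.0157 percent of all units. The limma unadjusted p was 0.051, 0.045 and 0.021 for FeCH, Nep6 and CG9498. An unadjusted p under 0.05 was found for 765 of all 19077 units.

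Over the 9904 single genes, 15.6 percent rose with age and 21.9 percent fell, and the counts of the gene lists stand beside these shares. Of 6 measured genes of heme synthesis and breakdown, 2 rose with age and 2 fell over both genotypes, with a median slope of -0.019 per 10 days against -0.0074 over single genes. Alas, the aminolevulinate synthase of the first step, fell by 0.14 ± 0.014 (SE), with limma adjusted p = 1.6e-08. Pbgs, which makes porphobilinogen, fell by 0.040. Urod, the uroporphyrinogen decarboxylase, rose by 0.069 ± 0.013 (SE), with limma adjusted p = 9.9e-05, and had slopes of 0.094 in Indy206 and 0.045 in controls. Coprox and Ppox, the oxidases just before ferrochelatase, had slopes of -0.010 and -0.027 and were not called. FeCH had the steepest rise of the 6. FeCH lay at the threshold between genotypes (limma adjusted p = 0.052), and none of the other 5 was called between genotypes (0.351 percent of all units were). The median slope of the list was 0.0014 with quantile normalization, with the same counts of rises and falls.

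Of 19 measured genes of iron storage, iron transport and iron-sulfur cluster assembly, 10 rose and 2 fell, beside 15.6 and 21.9 percent of single genes, with a median slope of 0.037 per 10 days. Nfs1, the cysteine desulfurase that supplies sulfur to the clusters, rose by 0.15 ± 0.016 (SE), with slopes of 0.21 in Indy206 and 0.10 in controls. The ferritin subunit genes Fer1HCH and Fer2LCH rose by 0.063 and 0.093, the transferrin family gene Tsf3 by 0.13, the metal transporter gene Zip99C by 0.13 and Mvl, an NRAMP metal transporter gene, by 0.11. Mitoferrin (mfrn), which brings iron into mitochondria, rose by 0.048. The ferredoxin gene Fdx2 fell by 0.053 and Cisd2 by 0.026. No gene of the list was called between genotypes, beside 0.351 percent of all units. Both scalings of the arrays gave the same counts. There were 5 rises and no fall without days 70 and 80, and 4 rises and no fall with midgut markers as a covariate. Over all 19077 units the calls also became fewer, from 1926 rises and 2872 falls in the main fit. They were 638 and 650 without days 70 and 80, and 1059 and 1061 with midgut markers.

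**Figure D3:**
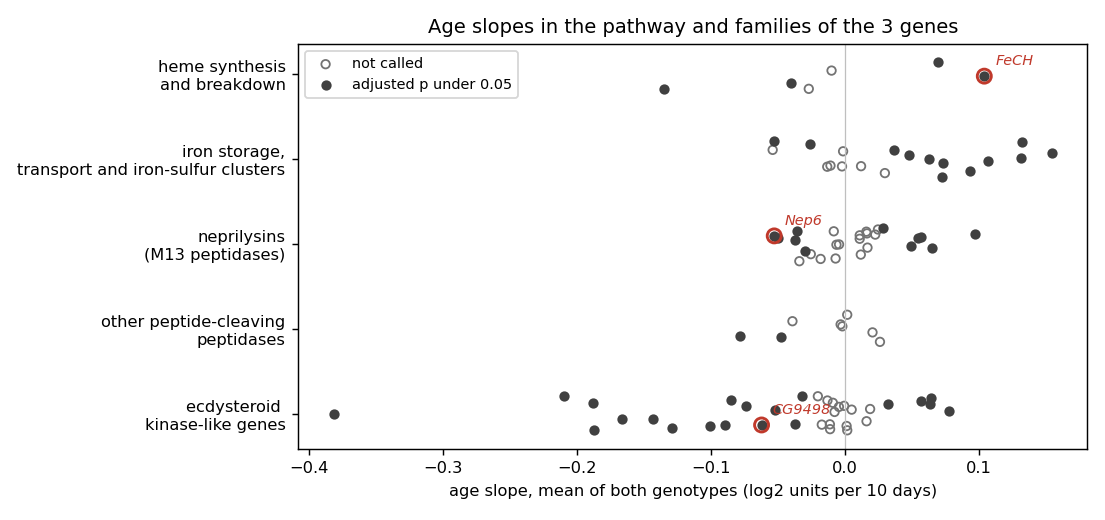
Slope on age averaged over both genotypes, in log2 units per 10 days (horizontal axis), for the measured genes of 5 lists (rows, with vertical scatter only to part the points). Filled points had limma adjusted p under 0.05 and open points did not, and red rings mark FeCH, Nep6 and CG9498. FeCH has the steepest rise among heme genes and Nep6 the steepest fall among neprilysins, and CG9498 sits among 15 falling genes of its family. The falls of Nep6 and CG9498 came from Indy206, with control slopes of -0.0031 and 0.018, each smaller than its error.

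Neprilysins moved in both directions. Of 26 measured, 6 rose (23.1 percent) and 5 fell (19.2 percent) with age, beside 15.6 and 21.9 percent of single genes, with a median slope of 0.011. Nep6 had the steepest fall of them, and the other falls called were goe at -0.050, Nep1 at -0.037, Nepl19 at -0.036 and Nepl7 at -0.030. Nep5 had a slope of -0.034 and was not called. Nepl16 rose by 0.097 ± 0.020 (SE), with limma adjusted p = 0.00046, Nep7 by 0.065, Nepl13 by 0.057, Nepl12 by 0.055, Nepl15 by 0.049 and Nepl3 by 0.028. Of these falling genes, the slopes in Indy206 and controls were -0.10 and -0.0031 for Nep6, -0.069 and -0.030 for goe and -0.021 and -0.053 for Nep1. The rank of Nep6 holds for the mean over genotypes and came from its Indy206 slope. No neprilysin was called between genotypes, beside 0.351 percent of all units. Without days 70 and 80 there were 2 rises and no fall, beside 638 rises and 650 falls over all units (1926 and 2872 with all ages). Of 8 other peptidases that cut peptides, none rose and 2 fell, beside 15.6 and 21.9 percent of single genes, with a median slope of -0.0027. With quantile normalization 1 fell and the median was 0.0030, and none fell without days 70 and 80 or with midgut markers as a covariate. Falls over all units numbered 2470, 650 and 1061 in these 3 settings, against 2872 in the main fit. Ance-2 and Ance-4, of the angiotensin-converting enzyme family, fell by 0.078 and 0.048, and Ide, the insulin-degrading enzyme gene, had a slope of 0.020 and was not called.

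Of 34 measured genes of the ecdysteroid kinase-like family, 15 fell (44.1 percent) and 5 rose (14.7 percent), with a median slope of -0.015. Falls outnumbered rises over single genes too, at 21.9 and 15.6 percent. There were 10 falls with quantile normalization, and 7 without days 70 and 80 or with midgut markers as a covariate. Over all units, falls numbered 2872 in the main fit and 2470, 650 and 1061 in these settings in turn. CG11892 fell by the most, 0.38 ± 0.030 (SE), with limma adjusted p = 4.1e-11. CG9259 fell by 0.21, CG10513 by 0.19, CG31099 by 0.19 and CG31300 by 0.17. The rising genes were pkm at 0.077, CG2004 at 0.065, CHKov2 at 0.063, CG11893 at 0.057 and JhI-26, known as a juvenile hormone-inducible gene, at 0.032. CG11893 was the 1 member of 34 called between genotypes over ages, at -0.34 (limma adjusted p = 0.040), beside 0.351 percent of all units. CG9498 was thus 1 of 15 falling members, and 11 members fell more steeply on average over the genotypes. Its mean fall came from Indy206, with slopes of -0.14 in Indy206 and 0.018 ± 0.021 (SE) in controls. The call of that fall depended on the setting, as given above.

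CG9497, the neighbour of CG9498 on the same arm and of the same family, fell with age (limma adjusted p = 9.9e-07), with slopes of -0.11 ± 0.019 in Indy206 and -0.095 ± 0.019 in controls (SE). Its difference in slope was -0.012 ± 0.027 (SE). On the other side ppk7, a gene of the pickpocket sodium channel family, had -0.044 ± 0.012 in Indy206 and 0.014 ± 0.012 in controls (SE), a difference of -0.058 ± 0.017 (SE). The measured neighbours of FeCH, namely CG1971, Rift, RhoGAP100F and CG2003, had differences in slope between -0.019 and 0.0084, each smaller than its error. Those of Nep6 had differences of 0.0018 for pira, 0.0011 for Agpat1, -0.093 ± 0.078 (SE) for CG4661 and -0.012 for Coq8. Of the 12 nearest measured neighbours, ppk7 and CG4661 alone had a difference larger than its error. None was called between genotypes over ages, beside 0.351 percent of all units.

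The 16 group means of Nep6 and CG9498 had a Pearson correlation of 0.82, and the 42 arrays one of 0.70. FeCH ran opposite to both, at -0.60 with Nep6 and -0.52 with CG9498 over the group means. All of these share the same arrays and the choice by slope, and are a description. The courses most like that of FeCH over the 16 means were those of Afg3l2, a mitochondrial protease gene (r = 0.94), CCT6, a chaperonin subunit gene (r = 0.94), and Clbn (r = 0.94). Afg3l2 had slopes of 0.16 in Indy206 and 0.092 in controls, and the most opposite course was that of CG13063 (r = -0.93). For Nep6 the most alike were Samuel (r = 0.89), CG14452 (r = 0.85) and CG10512 (r = 0.84), and for CG9498 they were CG10512 (r = 0.91), Irk3, a potassium channel gene (r = 0.87), and MFS9 (r = 0.85). CG10512 was on both lists, with slopes of -0.070 in Indy206 and -0.0072 in controls. The most opposite courses were those of CG11417 to Nep6 (r = -0.87) and Roc1b to CG9498 (r = -0.82).

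Levels of gut and fat body markers were correlated with those of these genes over the 42 arrays, pooled over ages and genotypes. Age courses shared by markers and genes enter these correlations, and correlation within groups was not computed. The median of 14 midgut digestive enzyme genes ran from -1.75 to 0.50 on Indy206 arrays and from -1.21 to 0.28 on control arrays. Of the 14, 9 fell with age and none rose, beside 21.9 percent of single genes that fell and 15.6 percent that rose. Over 42 arrays this median had a correlation of 0.61 with CG9498, 0.49 with Nep6 and -0.60 with FeCH. The group averages of the midgut median were 0.27 in Indy206 and 0.10 in controls at day 5, 0.17 in Indy206 and -0.54 in controls at day 10, -1.06 in Indy206 and -1.02 in controls at day 70, and -0.84 in Indy206 and -1.13 in controls at day 80. At day 20 they were 0.018 in Indy206 and -0.20 in controls, at day 30 -0.54 in Indy206 and -0.16 in controls, at day 40 -0.24 in Indy206 and -0.60 in controls, and at day 50 -0.56 in Indy206 and -0.35 in controls. The sign of the genotype difference in midgut markers was that of CG9498 at 7 of 8 ages, of Nep6 at 6 and of FeCH at 2. The median of 9 fat body markers ran from -0.39 to 0.32 in Indy206 and from -0.38 to 0.22 in controls. Its correlation was 0.50 with CG9498, 0.47 with Nep6 and -0.28 with FeCH, and the sign of its genotype difference was that of CG9498 at 7 of 8 ages, of Nep6 at 6 and of FeCH at none. FeCH also had correlations of -0.45 with haemocyte, -0.38 with photoreceptor and -0.37 with neuron markers. Testis and accessory gland markers also had the sign of CG9498 at 7 of 8 ages, and photoreceptor markers that of Nep6 at 7. The fat body median averaged 0.28 in Indy206 and 0.14 in controls at day 20, and -0.23 in Indy206 and -0.0072 in controls at day 70.

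**Figure D4:**
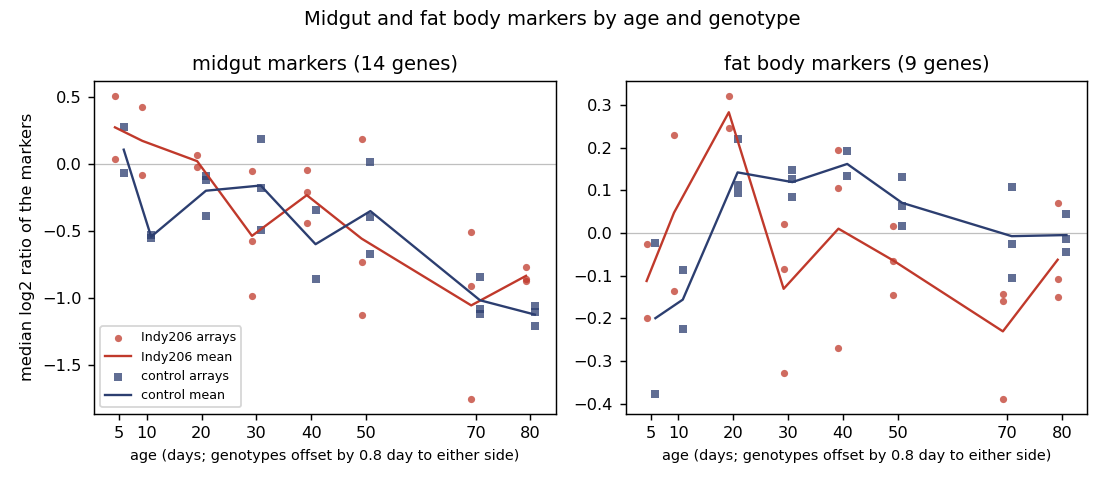
Median log2 ratio of 14 midgut and 9 fat body marker genes on each array (vertical axes) against age in days (horizontal axes). Red circles are Indy206 arrays and blue squares control arrays, and lines join group means. Midgut markers are lowest at days 70 and 80 in both genotypes, and fat body markers at day 70 average -0.23 in Indy206 and -0.0072 in controls.

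With the midgut median of each array as a covariate, the mean slopes of Nep6 and CG9498 were -0.031 ± 0.017 and -0.0040 ± 0.021 (SE) and not called (limma adjusted p = 0.25 and 0.94), while that of FeCH was 0.10 ± 0.014 (SE, limma adjusted p = 7.4e-06). The differences in slope with this covariate were 0.078 ± 0.016 for FeCH, -0.095 ± 0.020 for Nep6 and -0.15 ± 0.026 for CG9498 (SE). Without it they were 0.078 ± 0.016, -0.10 ± 0.021 and -0.16 ± 0.030 (SE). With the fat body median they were 0.074 ± 0.018, -0.087 ± 0.023 and -0.16 ± 0.034 (SE). The markers were read from the same arrays, and what part they have in the genotype differences was not tested. Without the 2 arrays least like their own group the differences in slope were 0.079 ± 0.016, -0.094 ± 0.018 and -0.16 ± 0.031 (SE). The mean slopes were then 0.10, -0.056 and -0.061, all called, the differences over ages 0.16, -0.055 and 0.16, none called, and the courses beyond a line had limma adjusted p = 0.088, 0.027 and 0.043.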

How the data were processed

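Per the submitters' processing notes the authors used limma, and the deposited table holds 1 log2 ratio for each spot of each array. The sources used here do not state the software version, the background correction, the normalization, the filters, the log base or the direction. Array medians lay between -0.014 and 0.0019 and no value was missing, so the values were not normalized again. Spots were named from the platform annotation (10827 with 1 gene, 227 with several, 8946 with none paired here), and 10823 of the first matched the gene table. Spots of 1 gene were averaged, giving 19077 units. In R 4.3.3, limma 3.58.1 (lmFit, then eBayes) fitted 16 group means to the 42 arrays, which left 26 residual degrees of freedom. Contrasts weighted the 8 ages equally, slopes are least squares on day per 10 days, and departure from a line is a moderated F test. P-values were adjusted by Benjamini-Hochberg over all units and called under 0.05. Data were simulated with the real spread of 19077 units and noise independent between units. In them 92.5 percent of 200 mean slopes of 0.1 per 10 days were called, as were 92 percent of 200 genotype differences of 0.5. Of 200 departures from a line of 0.5, 76.5 percent were called. Smaller sizes, such as the smaller differences and slopes reported here, were not simulated. The genes and the lists were chosen with earlier results of these data known. Lists hold genes named by function, of which 6 of 9 (heme), 19 of 21 (iron), 26 of 28 (neprilysins), 8 of 11 (other peptidases) and 34 of 52 (ecdysteroid kinase-like) were measured. Named from the lists are called genes or the largest values, with the 2 nearest measured neighbours on each side, the 3 most alike courses and the most opposite one. Replicate numbers were checked for pairing, and of 19 same-numbered pairs of an age, 13 had deviations correlated over 0.1. The pairs of an age are not independent, since deviations were taken from group means. Day 10 replicates 1 and 2 had the same correlation of 0.104 and count as separate pairs. The correlations ran from -0.35 to 0.62, and those of day 50 were 0.36, 0.53 and 0.62. The labels do not state a pairing, so the main fit did not use the numbers, and fits with them as blocks are given below. Whether arrays of an age shared a batch was not tested. One control array of day 70 is numbered 3 after its title. P-values measure differences against the spread between sets of males, and the number of arrays limits the precision. Signal over background was not analysed here. Alternatives covered scaling, spot averaging, array weights, robust variance, replicate numbers, the age scale, ages, covariates and each array left out. Figures were drawn with matplotlib 3.10.9.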

Additional observations from a re-analysis of the deposited data

How the results depend on the processing

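Values are for FeCH, Nep6 and CG9498, and adjusted p is from limma. The FeCH difference over ages was brought under 0.05 by 6 alternatives, at 0.173 (adjusted p = 0.0499) with spots not averaged, 0.171 with array weights (0.019), 0.199 without day 5 (0.038), 0.251 without days 5 and 10 (0.0019), 0.173 over single genes alone (0.047) and, with age and replicate number as a random replicate block, 0.173 (0.039, within-block correlation 0.064). The replicate number as a fixed block (FeCH 0.17, adjusted p = 0.068) changed no call of the 3 genes, and neither block moved a count of calls by over 1.5 times. The numbers were not shown to pair samples.

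The mean slope of FeCH was called under all 17 alternatives other than single arrays left out. That of Nep6 was not called without days 70 and 80 (-0.022) or with midgut markers as a covariate (-0.031). That of CG9498 was not called with quantile normalization (-0.032), on log2 of day (-0.036), without day 80 (-0.056) or with midgut markers (-0.0040), and was 0.032 without days 70 and 80. The slope difference of FeCH was 0.057 without day 80 and 0.036 without days 70 and 80. That of Nep6 was -0.079 on log2 of day, -0.121 without day 5, -0.135 without days 5 and 10, -0.121 without day 80 and -0.068 without days 70 and 80. That of CG9498 was -0.214 without day 80 and -0.219 without days 70 and 80.

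Adjusted p for departure from a line turned to a call for FeCH with array weights (0.012), log2 of day (0.00051), without days 5 and 10 (0.042) and over single genes (0.043). For Nep6 it did so with quantile normalization (0.041), array weights (0.0049), log2 of day (0.010) and without the 2 arrays least like their own group (0.027). For CG9498 the call was lost with quantile normalization (0.068), scaling to a common median absolute deviation (0.11), without day 5 (0.097), without days 5 and 10 (0.090), without days 70 and 80 (0.33), and with testis and accessory gland (0.067) or fat body (0.18) markers as covariates.

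Of all units, the difference over ages was called in 67, in 22 without days 70 and 80 and in 105 with midgut markers. The mean slope was called in 4798, in 2938 without day 5, 2662 without days 5 and 10, 1288 without days 70 and 80, 2185 with testis and accessory gland markers and 2120 with midgut markers. Rises and falls numbered 1926 and 2872, or 2386 and 2470 with quantile normalization. Departure from a line was called in 1193, in 713 with common scaling, 3782 with array weights, 330 without day 5, 308 without days 5 and 10 and 201 with testis and accessory gland markers. Its difference between genotypes was called in 3, in 1 on log2 of day, without days 5 and 10 or over single genes, and in 0 without days 70 and 80 or with testis and accessory gland or fat body markers (765 at unadjusted p under 0.05 in all arrays). The slope difference was called in 0, in 4 with array weights and in 1 with fat body markers. The cause of these changes was not tested, beyond the fewer samples or units of some alternatives.

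With each of 42 arrays left out in turn, the FeCH difference over ages ran from 0.14 to 0.20 (adjusted p from 0.0026 to 0.11), that of Nep6 from -0.047 to 0.0037 and that of CG9498 from 0.074 to 0.20. Mean slopes ran from 0.097 to 0.11, from -0.056 to -0.050 and from -0.076 to -0.049, all called. Slope differences ran from 0.064 to 0.092, from -0.106 to -0.093 and from -0.19 to -0.13. Adjusted p for departure from a line ran from 0.013 to 0.12, from 0.018 to 0.19 and from 0.0048 to 0.071, and for its difference between genotypes from 0.74, 0.89 and 0.67 to 1.00. Counts of units called ran from 46 to 95 for the difference over ages, from 4006 to 5128 for the mean slope, from 681 to 1968 for departure from a line, from 0 to 34 for its difference and from 0 to 23 for the slope difference. Departure from a line was called in 779 and 786 units without Indy206 day 5 replicate 1 or 2, 765 without Indy206 day 20 replicate 2, 768, 736 and 1968 without Indy206 day 30 replicate 1, 2 or 3, and 681 without control day 5 replicate 3. The 10 arrays without which a slope difference was called were the 2 Indy206 arrays each of days 5, 10 and 20 and the 2 control arrays each of days 5 and 10, with 23 units without control day 10 replicate 1. Groups of 2 or 3 arrays were too small to flag a single array. Signal over background was not analysed here, so the precision of dim spots is unknown.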
